A study of Homo sapiens with 4 samples.

Results

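AREG, EREG, HBEGF and TGFA encode growth factors of the EGF family, EGFR, ERBB2 and ERBB3 encode receptors of the ERBB family, and MET encodes the receptor of hepatocyte growth factor. The 8 genes were chosen by name and function, with earlier results of these data known. All 8 were found among the 19901 protein-coding genes of the count table. Nascent RNA was measured by TT-Seq, in which a short pulse of 4-thiouridine (4sU) marks new transcripts so that they can be purified and sequenced. All 4 libraries came from HCT116, a human colon cancer line, with the genotype KAP1_dTAG_CloneD5, a single clone selected for a degron tag on both copies of KAP1 (TRIM28). Cells growing in serum received DMSO or dTAG-13 (500 nM in the methods) for 8 h and then 4sU at 500 μM for 10 min, with 2 libraries per condition. Controls thus carry the tagged KAP1 as well, and no library from untagged cells was compared.

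EGF family ligands are made as membrane-bound precursors, are cut free by ADAM proteases, and bind ERBB receptors, which pair with each other and signal through RAS and MAP kinases and through PI3K and AKT. ERBB2 binds no known ligand and ERBB3 has little kinase activity of its own, so both act mainly through their partners. Autocrine AREG and EREG are well known in colorectal cancer cells, where their expression has been studied in relation to antibodies against EGFR. MET has its own ligand, HGF, which in tissues comes mostly from mesenchymal cells.

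Counts on protein-coding genes summed to between 93105627 and 102314741 per library, and the 12612 genes that reached 50 counts in each of them were tested. Levels are given as CPM, counts scaled to a library of 1e6 after TMM, and as CPM per kilobase of gene where genes are compared with each other. A gene is named as called where edgeR's quasi-likelihood test gave a Benjamini-Hochberg adjusted p under 0.05. The log2 fold change, dTAG over DMSO, had a median of -0.015 over all tested genes, and 434 genes were called higher and 461 lower. That split was 255 to 869 with upper-quartile factors, 454 to 755 with an ERCC spike-in factor as a covariate, 635 to 418 with the trend on gene length removed, and 1343 to 941 with the trends on GC content and length removed. TRIM28 itself was lower with dTAG (log2 fold change -0.37), but the compound acts on the protein, so its RNA does not check the labels. Of 7 epithelial markers 6 were tested, and VIL1 had 1 to 15 counts. Sums of markers are per 1e6 gene counts without TMM. The epithelial markers summed to 1182 and 1278 CPM with DMSO and to 1172 and 1062 CPM with dTAG. Of 9 leukocyte, fibroblast and endothelial markers only COL1A1 and VWF reached the count minimum, COL1A2 had 0 counts in every library, and the 9 summed to between 6.66 and 8.32 CPM.

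The start regions of AREG and EREG are shown because these genes had by far the most nascent RNA per kilobase of the 8. Each window runs from 250 bases before to 50 bases after the RefSeq start on GRCh38.p14, on the plus strand, at chr4:74444886-74445185 for AREG and chr4:74364895-74365194 for EREG. Capitals mark the TATA motif TATAAA and, in AREG, the cAMP response element motif TGACGTCA.
AREG: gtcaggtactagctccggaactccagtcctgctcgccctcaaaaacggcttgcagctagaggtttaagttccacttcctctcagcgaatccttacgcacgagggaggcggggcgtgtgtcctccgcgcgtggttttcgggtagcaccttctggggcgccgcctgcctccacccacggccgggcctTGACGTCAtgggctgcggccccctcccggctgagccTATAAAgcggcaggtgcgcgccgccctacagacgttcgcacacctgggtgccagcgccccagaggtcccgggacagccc
EREG: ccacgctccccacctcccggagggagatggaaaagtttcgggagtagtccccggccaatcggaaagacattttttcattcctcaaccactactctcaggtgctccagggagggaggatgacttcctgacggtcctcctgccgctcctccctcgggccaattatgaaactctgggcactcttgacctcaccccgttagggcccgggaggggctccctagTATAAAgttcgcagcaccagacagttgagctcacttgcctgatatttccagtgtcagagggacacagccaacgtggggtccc

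TATAAA began at position -29 from the start in AREG and at -32 in EREG, where 0 is the first transcribed base. On either strand, it was found in 11.5% of the 35116 RefSeq windows of this length. The table held 9 windows for 7 of the 8 genes, and TATAAA was in 3 of these 9, those of AREG, EREG and an internal start of EGFR. TGACGTCA began at -65 in AREG, was in 1 of the 9 windows, and was in 1.85% of all windows. TGANTCA, a loose form of the AP-1 motif that allows any middle base, was in 2 of the 9, against 7.71% of all windows. The matches were TGAGTCA and TGACTCA at the internal EGFR start and TGATTCA in ERBB2. The CArG box, which serum response factor binds, was in 0 of the 9 and in 1.29% of all windows, and the E-box CACGTG was in 1 of the 9, that of MET, and in 7.26% of all windows. A match of letters is a description of the window and not a measured binding site.

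The ligand genes differed in basal level far more than the receptor genes. In DMSO replicates 1 and 2, EREG (epiregulin) stood at 109 and 89.6 CPM per kilobase. It was the highest of the 8 genes, ranked 45th per kilobase among the 12612 tested genes, and alone took 0.222% to 0.261% of all gene counts in each library. AREG (amphiregulin) followed at 69.1 and 61.9 CPM per kilobase in the DMSO libraries, at rank 77. The levels of these neighbours on chromosome 4 did not overlap. MET came next at 8.37 and 7.24 CPM per kilobase, at the 94.6th percentile of the tested genes.
The other 5 genes lay close to the median of all tested genes, 1.06 CPM per kilobase. HBEGF (heparin-binding EGF) had 1.33 and 1.78 CPM per kilobase with DMSO, and EGFR had 1.15 and 1.10. ERBB2 stood at 0.980 and 1.09 and ERBB3 at 0.873 and 1.05 CPM per kilobase, and these ranges overlapped. TGFA (transforming growth factor alpha), at 0.986 and 0.924 CPM per kilobase, overlapped ERBB3 as well. AREG and EREG together made up 98.5% of the summed level per kilobase of the 4 ligand genes with DMSO and 98.6% with dTAG. These levels describe transcripts labeled over whole genes and carry no information on protein.

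**Figure D1:**
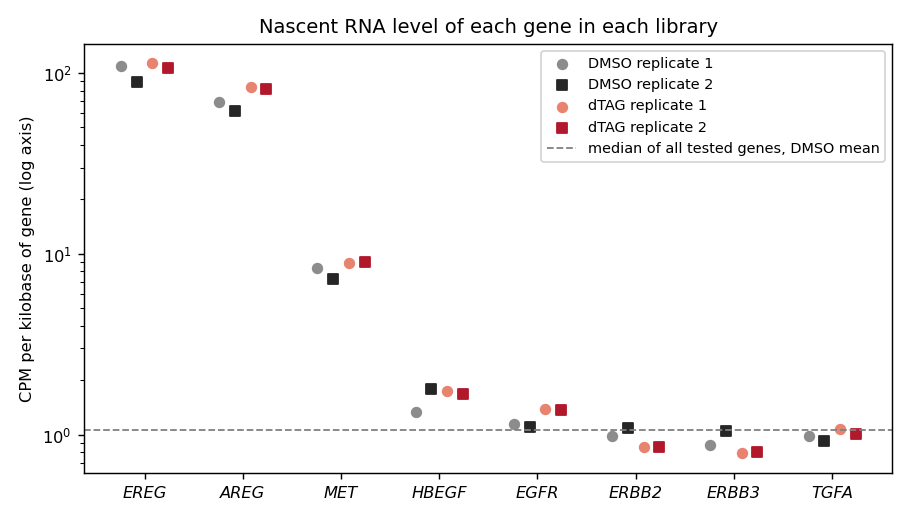
Level of each gene in CPM per kilobase of gene (log axis) in the 4 libraries, ordered by the mean of the DMSO libraries, with the median of all tested genes (1.06) as a dashed line. EREG and AREG stand above 60 in every library, MET has its lowest library at 7.24, and the other 5 genes lie between 0.787 and 1.78.

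With dTAG, the 8 genes moved by less than 1.3-fold in either direction. EGFR was called higher, and 0 of the 8 were called lower. Over all tested genes 3.44% were called higher and 3.66% lower, so that 1 call among 8 genes gives little ground for a statement on the group. Both dTAG libraries lay above both DMSO libraries for AREG, TGFA, EGFR and MET, 4 of 8 genes, where 28.1% of all tested genes did so. Both lay below for ERBB2 and ERBB3, 2 of 8, against 30.7% of all tested genes. EREG and HBEGF overlapped between the groups. The median log2 fold change of the 8 genes was 0.14.

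**Figure D2:**
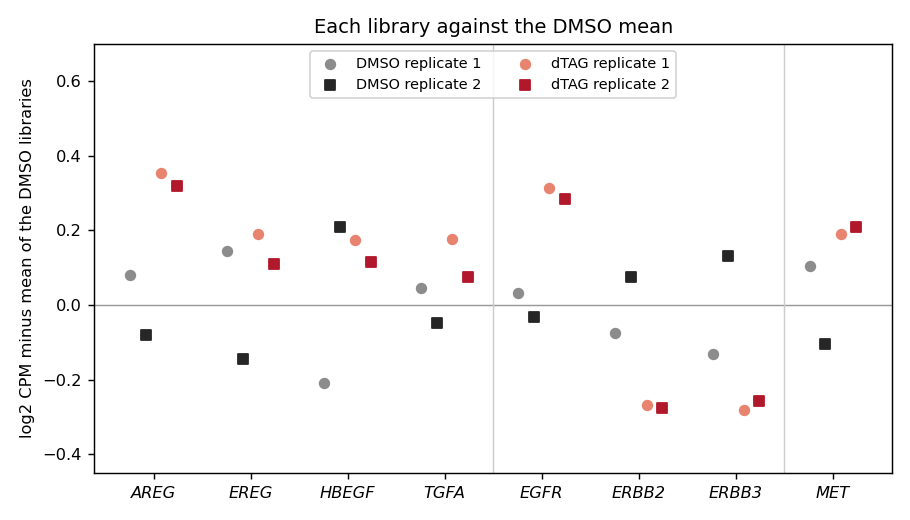
log2 CPM of each gene in each library minus the mean of the DMSO libraries, with vertical lines between ligands, ERBB receptors and MET. The dTAG libraries of AREG (0.35 and 0.32) and EGFR (0.31 and 0.28) stand above both DMSO libraries, and those of ERBB2 (-0.27 and -0.28) and ERBB3 (-0.28 and -0.26) stand below.

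Among the ligands, AREG (ENSG00000109321.10, plus strand of chromosome 4 from 74445133 to 74455009, hg38) had the largest difference. Its levels were 683 and 611 CPM with DMSO and 825 and 806 CPM with dTAG. Both dTAG libraries were above both DMSO libraries, with means of 647 ± 50.5 and 816 ± 13.2 CPM (SD, n = 2). The log2 fold change of 0.33 (standard error 0.105, 95% interval 0.12 to 0.55) missed the threshold (adjusted p = 0.0555 by edgeR), so AREG was not called. AREG was called under 8 of 15 alternative settings, the fits without a DMSO library included. Among them were DESeq2 (adjusted p = 0.00452) and removal of the trends on GC content and length (log2 fold change 0.23, adjusted p = 0.00253 by edgeR). It was not called with upper-quartile factors (adjusted p = 0.074) or the replicate block (adjusted p = 0.287), both by edgeR. The 15 include a block with the replicate numbers crossed, chosen after the data were seen. That setting called AREG, EGFR, ERBB2 and ERBB3. Without DMSO replicate 1 the log2 fold change was 0.42, and without DMSO replicate 2 it was 0.26. It was 0.32 without dTAG replicate 1 and 0.35 without dTAG replicate 2. Such fits leave 1 library in a group and assume that it varies like the other group, so only effect sizes are given here. Calls from such fits are included in the counts of settings and carry little weight.

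EREG (ENSG00000124882.3, plus strand of chromosome 4 from 74365142 to 74388751) lies 56.4 kb before AREG. Its levels were 2583 and 2115 CPM with DMSO and 2669 and 2524 CPM with dTAG. The groups overlapped, since dTAG replicate 2 lay below DMSO replicate 1. EREG differed by 0.14 on the log2 scale (95% interval -0.13 to 0.42), with an adjusted p of 0.491 by edgeR. EREG stood at 0.0061 without DMSO replicate 2 and at 0.30 without DMSO replicate 1. With the trends on GC content and length removed it stood at 0.014 (adjusted p = 0.885 by edgeR). The ratio of AREG to EREG counts within a library needs no scaling and was 0.264 and 0.289 with DMSO and 0.309 and 0.320 with dTAG. It was higher in both dTAG libraries, by 0.19 on the log2 scale against a pooled SD of 0.069, although 2 libraries against 2 allow no exact permutation p below 0.333. GC content is nearly the same in both genes, 36.9% and 36.6%. This and the other ratios below were chosen after the counts had been seen.

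HBEGF (ENSG00000113070.7, minus strand of chromosome 5 from 140332842 to 140346631), whose precursor is also the receptor of diphtheria toxin, had 18.4 and 24.6 CPM with DMSO and 23.9 and 23.0 CPM with dTAG. The DMSO libraries lay on either side of the dTAG libraries. Its log2 fold change was 0.13 (95% interval -0.13 to 0.39, adjusted p = 0.516 by edgeR). It was -0.064 without DMSO replicate 1. HBEGF was called higher without DMSO replicate 2 (0.35, adjusted p = 0.0126 by edgeR) and with the ERCC factor as a covariate (0.43, adjusted p = 0.0156 by edgeR).
TGFA (ENSG00000163235.15, minus strand of chromosome 2 from 70447279 to 70554193) is the longest of these ligand genes, at 106.9 kb. It had 105.5 and 98.8 CPM with DMSO and 115 and 108 CPM with dTAG. The groups were narrowly separated. Its log2 fold change of 0.13 (95% interval -0.049 to 0.30) had an adjusted p of 0.342 by edgeR. TGFA stood at 0.17 without DMSO replicate 1 and at 0.079 without DMSO replicate 2.

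Among the receptors, EGFR was higher with dTAG while ERBB2 and ERBB3 lay lower without being called. EGFR (ENSG00000146648.17, plus strand of chromosome 7 from 55019020 to 55211628), the receptor that the 4 ligands share, had 221 and 211 CPM with DMSO and 268 and 263 CPM with dTAG. Both dTAG libraries exceeded both DMSO libraries, and the means were 216 ± 6.88 and 265 ± 3.72 CPM (SD, n = 2). The log2 fold change was 0.30 (standard error 0.0887, 95% interval 0.11 to 0.48), a rise of 23.0%, at an adjusted p of 0.0468 in the quasi-likelihood test of edgeR. The direction was the same under all 15 alternatives, and EGFR was called under 9 of them. These 9 include the block with the numbers crossed and the fits without a DMSO library, which leave 1 library in that group. Among the settings that lost the call were upper-quartile factors (adjusted p = 0.0752), removal of the length trend (0.21, adjusted p = 0.0581) and ERCC totals as library sizes (adjusted p = 0.472), all by edgeR. EGFR stood at 0.29 without dTAG replicate 1 and at 0.31 without dTAG replicate 2, and neither fit kept the call. In a bulk culture, a change in the share of cells that transcribe a gene and a change in its transcription per cell cannot be told apart.

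ERBB2 (ENSG00000141736.13, plus strand of chromosome 17 from 39687913 to 39730426) had 41.7 and 46.2 CPM with DMSO and 36.4 and 36.2 CPM with dTAG. Both dTAG libraries were below both DMSO libraries. The log2 fold change of -0.27 (standard error 0.0941, 95% interval -0.47 to -0.079) had an adjusted p of 0.076 by edgeR. It was called under 5 of 15 alternatives, with upper-quartile factors (-0.35, adjusted p = 0.0355 by edgeR) among them. These 5 include the fit without DMSO replicate 1 and the block with the numbers crossed. ERBB2 stood at -0.35 without DMSO replicate 1 and at -0.20 without DMSO replicate 2. With the trends on GC content and length removed it was nearer to zero, at -0.16 (adjusted p = 0.059 by edgeR). PGAP3 and MIEN1 on the opposite strand cover 20.9% and 4.54% of the ERBB2 interval, and whether reads were counted by strand is not given in the sources used here. Reads of the 3 genes may therefore not be fully separated.
ERBB3 (ENSG00000065361.15, plus strand of chromosome 12 from 56076798 to 56103505) had 23.3 and 27.99 CPM with DMSO and 21.0 and 21.4 CPM with dTAG. These groups did not overlap either. ERBB3 differed by -0.28 on the log2 scale (standard error 0.112, 95% interval -0.51 to -0.041, adjusted p = 0.127 by edgeR). Without DMSO replicate 1 ERBB3 stood at -0.40, and without DMSO replicate 2 it stood at -0.14. With the trends on GC content and length removed, ERBB3 stood at -0.18 (adjusted p = 0.106 by edgeR). ENSG00000257411 on the same strand covers 8.15% of the ERBB3 interval and had 1 to 31 counts, so reads of these genes may not be fully separated either. With ERCC totals as library sizes, ERBB2 and ERBB3 stood at 0.39 and 0.41, where the median of all tested genes was 0.63. The summed epithelial markers, scaled without TMM, were lower in both dTAG libraries, but the markers differed in direction. In that sum dTAG replicate 1 (1172 CPM) was close to DMSO replicate 1 (1182 CPM). The TMM factors of these libraries, 0.979 and 1.002, are enough to change their order, so the sums give no common direction. Both dTAG libraries lay below both DMSO libraries for KRT8, KRT19 and CLDN4 and above them for CDH1 (log2 fold change 0.24) and EPCAM (0.053), KRT18 overlapped, and none of the 6 was called by edgeR. The part of these markers in the differences of ERBB2 and ERBB3 was not tested.

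Ratios within a library show the unequal movement of the receptors without any scaling. EGFR had 5.29 and 4.56 counts per count of ERBB2 under DMSO, against 7.35 and 7.25 under dTAG. The ratio did not overlap between the groups and was 1.49-fold higher with dTAG, a log2 difference of 0.57 against a pooled SD of 0.11. EGFR over ERBB3 gave 9.46 and 7.53 with DMSO and 12.8 and 12.3 with dTAG, a log2 difference of 0.57 as well. ERBB2 over ERBB3 stayed between 1.65 and 1.79 in all 4 libraries and overlapped between the groups. The exact permutation test again allows no p below 0.333. EGFR has a GC content of 44.6%, ERBB2 of 52.1% and ERBB3 of 50.1%, and genes richer in GC tended to lower fold changes over the whole tested set (rho -0.56 by Spearman, a description across genes). With the trends on GC content and length removed, the log2 differences were 0.42 for EGFR against ERBB2 and 0.44 for EGFR against ERBB3.
DMSO replicate 2 was above DMSO replicate 1 in the 3 genes with the highest GC content of the 8, HBEGF, ERBB2 and ERBB3, and below it in the other 5. Over all tested genes, the ratio of these libraries followed GC content with a Spearman's rho of 0.75.

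MET (ENSG00000105976.14, plus strand of chromosome 7 from 116672389 to 116798386) had 1055 and 912 CPM with DMSO and 1120 and 1134 CPM with dTAG. The dTAG libraries lay above both DMSO libraries, by less than the DMSO libraries differed from each other. MET differed by 0.20 on the log2 scale (95% interval -0.036 to 0.43), with an adjusted p of 0.264 by edgeR. It stood at 0.31 without DMSO replicate 1 and at 0.094 without DMSO replicate 2. With the ERCC factor as a covariate MET stood at -0.0081. With the trends on GC content and length removed it stood at 0.059 (adjusted p = 0.339 by edgeR). HGF, its ligand, had 0 counts in DMSO replicate 1 and dTAG replicate 2 and 1 count in each of the others. A count of 0 allows up to 3 counts for counting error only. Without TMM, that is 0.0303 CPM in DMSO replicate 1 and 0.0322 CPM in dTAG replicate 2.

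**Figure D3:**
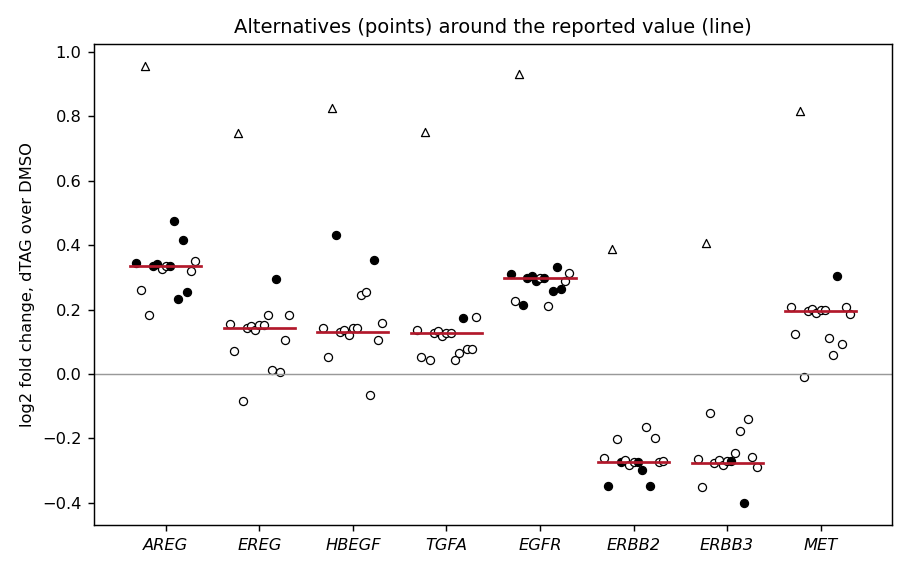
log2 fold change of each gene, dTAG over DMSO, under the 15 alternative settings (points, filled where the adjusted p is under 0.05, triangles for ERCC totals as library sizes) around the reported value (red line). AREG, TGFA and EGFR are above 0 under every setting, and ERBB2 and ERBB3 are below 0 under all but the ERCC totals.

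The other genes of the pathway were taken from 7 lists by textbook role, with earlier results of these data known. The shares of called genes below are therefore a description and no test. The lists held 62 genes in all, of which 52 were tested. Of these 52, 4 were called higher and 1 lower, 7.69% and 1.92%, against the 3.44% and 3.66% of all tested genes. That split of the 52 was 2 higher and 3 lower with the ERCC factor as a covariate, and 11 higher and 5 lower with the trends on GC content and length removed. Their median log2 fold change was 0.044. The genes called higher were ERRFI1, NRG1, BTC and ADAM9, and the gene called lower was GRB7.

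ERRFI1 (MIG6), an inducible inhibitor that binds the EGFR kinase domain, had the largest difference of the 52. Its counts were 74146 and 68244 with DMSO and 134044 and 115983 with dTAG. Its level rose from 716 to 1312 CPM on average, and the dTAG libraries stood far above both DMSO libraries. This difference was 0.87 on the log2 scale (standard error 0.11, adjusted p = 5.3e-05 by edgeR). ERRFI1 was called under 14 of 15 alternatives, the fits without 1 library included, at log2 fold changes between 0.75 and 0.94. It lost its call with ERCC totals as library sizes, where it stood at 1.498 (adjusted p = 0.472 by edgeR). Counts of ERRFI1 per count of EGFR were 3.39 and 3.24 under DMSO and 5.00 and 4.89 under dTAG, although no exact permutation p below 0.333 is possible. Of the 10 genes that restrain these receptors, the other 9 were not called, and the lowest, LRIG1, stood at -0.42 (adjusted p = 0.101 by edgeR).

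Of 8 further ERBB ligands and receptors, 4 reached the count minimum, and 2 of these were called higher. NRG1, a ligand of ERBB3 and ERBB4, went from 2644 and 2175 counts with DMSO to 3503 and 3308 with dTAG, a log2 fold change of 0.56 (standard error 0.109, adjusted p = 0.00333 by edgeR). It spans over a megabase, and its level, 0.0215 CPM per kilobase, was far below that of AREG. BTC (betacellulin), a ligand of EGFR and ERBB4, had 493 and 422 counts with DMSO and 619 and 662 with dTAG, a log2 fold change of 0.55 (adjusted p = 0.0498 by edgeR). NRG2 and NRG4, the other tested genes, stood at -0.11 and -0.46 and were not called. The remaining genes, EGF (29 to 54 counts), EPGN (17 to 26), NRG3 (13 to 16) and ERBB4 (16 to 40), fell under the minimum and are named after their counts were seen.
ADAM9, a membrane protease that can release EGF family ligands, was called higher among the 5 tested of 6 genes for ligand shedding, from 396 to 533 CPM on average (log2 fold change 0.43, standard error 0.102, adjusted p = 0.0158 by edgeR). ADAM17, the main protease for AREG, TGFA and HBEGF, stood at 0.27 with an adjusted p of 0.06 by edgeR.

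GRB7, an adaptor that binds ERBB2, was the gene called lower, with 1308 and 1653 counts with DMSO and 1075 and 866 with dTAG. GRB7 differed by -0.55 on the log2 scale (standard error 0.139, adjusted p = 0.0209 by edgeR), and its GC content, 59.1%, is above that of all 8 genes. The genes called higher lay below the median GC content of the tested genes, 44.9%. They had 37.9% (NRG1), 37.5% (BTC), 37.5% (ADAM9) and 42.8% (ERRFI1). Fold changes also tended to be higher in longer genes over all tested genes (rho 0.42 by Spearman, a description across genes), and NRG1 spans 1129 kb. The other 9 of 10 adaptor genes were not called. None of the 10 genes of the RAS and MAP kinase relay was called by edgeR, with BRAF highest at 0.21 and MAPK3 lowest at -0.30. None of the 8 tested of 10 genes of the PI3K and AKT relay was called either, and the lowest, AKT1, stood at -0.23. PIK3R2 was listed with 0 counts in all 4 libraries. Of 8 genes around HGF and the MET relative RON (MST1R), 5 were tested and 0 were called, with SPINT2 highest at 0.11 and SPINT1 lowest at -0.21. At an unadjusted p under 0.05, 14 of the 52 genes passed by edgeR, and 3355 of all 12612 tested genes did.

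**Figure D4:**
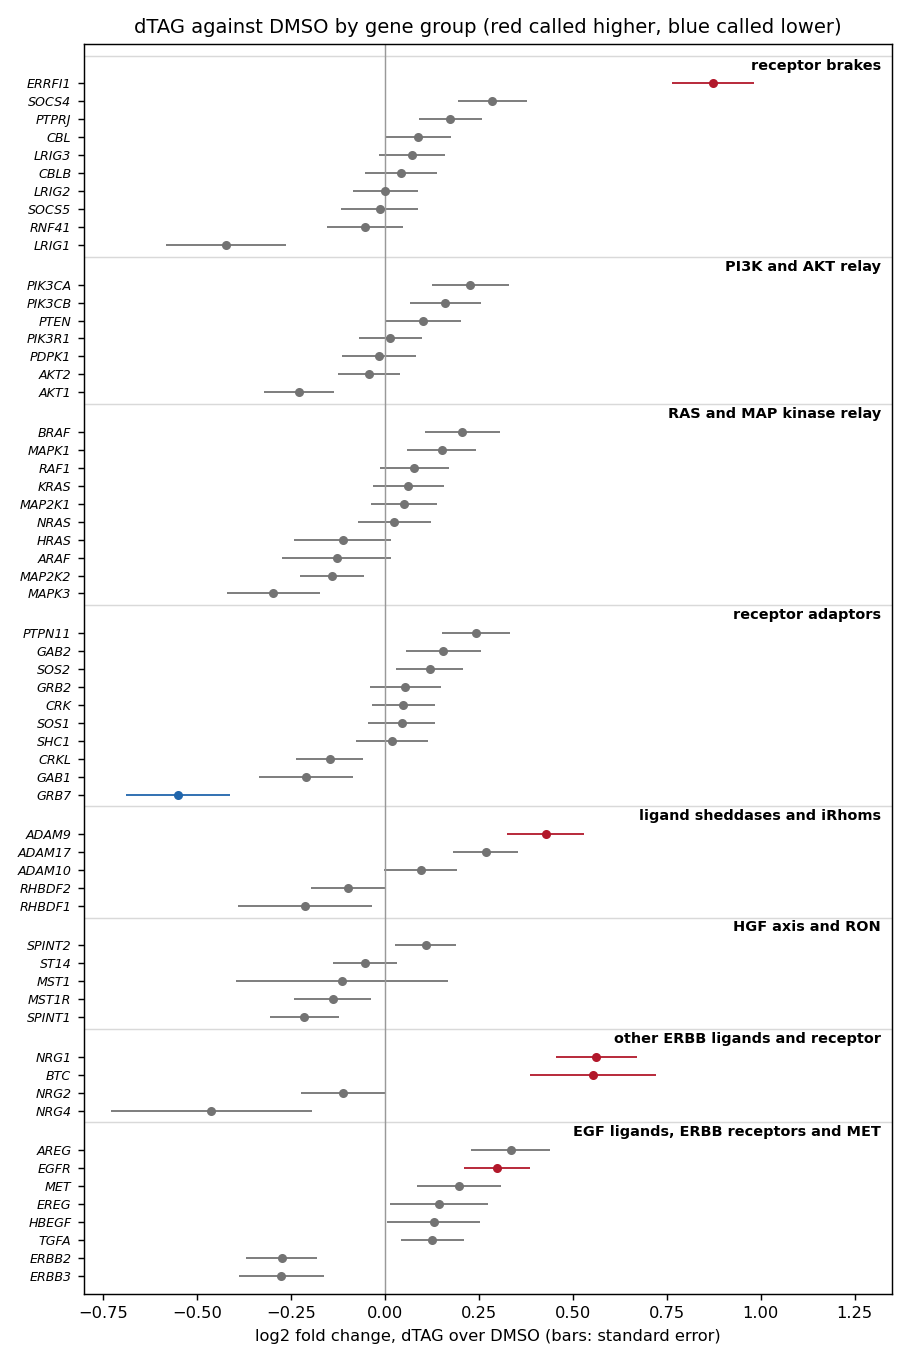
log2 fold change, dTAG over DMSO, with standard errors for the 8 genes (bottom) and tested genes of the 7 pathway lists, sorted within each list. EGFR, BTC, NRG1, ADAM9 and ERRFI1 are called higher (red), and GRB7 is called lower (blue).

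The ligand genes EPGN, EREG, AREG and BTC follow each other on chromosome 4 with no other gene of the table between them. Gaps are 49.8 kb from EPGN to EREG, 56.4 kb from EREG to AREG and 290 kb from AREG to BTC. Their counts nevertheless ranged from 17 to 26 for EPGN up to 211002 to 267242 for EREG. Of these 4 genes only BTC was called, and AREG and EREG lay in the same direction. GRB7 is the next gene after ERBB2, at a gap of 7.50 kb, and both lay lower with dTAG in both libraries. The gene before ERBB2, PNMT, had at most 1 count in any library. CAV1 (caveolin 1) precedes MET at 111 kb and had a log2 fold change of 0.30 (adjusted p = 0.0817 by edgeR), and CAPZA2 follows MET at 12.7 kb with 0.050. The neighbours of EGFR, SEC61G and LANCL2, stood at 0.20 and 0.11, and those of HBEGF, PFDN1 and SLC4A9, at 0.16 and -0.41. RPS26 and PA2G4, on either side of ERBB3, stood at -0.036 and -0.050, and FAM136A beside TGFA at -0.034. None of the neighbours of EGFR, HBEGF, TGFA, ERBB3 or MET was called by edgeR, and ADD2, on the other side of TGFA, was not tested.
Over the 4 libraries, the pattern of EGFR was closest to those of PARP11, CAV1, L1CAM, PLAGL1 and DNMBP. Closeness is the Euclidean distance between log2 CPM values after the mean of each gene is removed, and it lay between 0.0180 and 0.0227 for these 5 of the 12612 tested genes. Their log2 fold changes, between 0.29 and 0.31, are near that of EGFR because of how they were picked. PLAGL1 was called (adjusted p = 0.0476 by edgeR). CAV1, which precedes MET on chromosome 7, is among these closest matches over only 4 libraries, and a link between these genes was not tested.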

How the data were processed

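TT-Seq libraries of HCT116 KAP1_dTAG_CloneD5 cells were grouped by title into DMSO and dTAG, 2 each. Trim Galore 0.6.4 was used by the authors for trimming and STAR 2.7.3a for mapping to hg38. They counted reads over entire protein-coding genes with featureCounts (Subread 1.6.3). The deposited values are raw counts for 19901 genes and 92 ERCC RNAs, without normalization. The annotation version, strand setting and treatment of reads in overlapping genes are not given in the sources used here. Whole-gene counts do not separate introns from exons. The methods call the 2 libraries of a condition biological replicates.

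Identifiers were matched to symbols without version (19802 of 19901). Gene intervals are those of the table. GC content was computed over them in hg38, and start regions are from RefSeq on GRCh38.p14. The 12612 genes that reached 50 counts in each library, a minimum from the methods, were tested in R 4.3.3 with edgeR 4.0.16 (TMM, quasi-likelihood F test, two-sided, no block, Benjamini-Hochberg over all tested genes). In the study, counts were normalized to the spike-ins with RUVSeq (version 1.32.0) together with EDASeq. The settings of that step are not given in the sources used here, and the study's scripts were not used, so ERCC settings were alternatives. The ERCC factor was estimated in the manner of RUVg from the 14 ERCC RNAs past the minimum. Each standard error was derived as the absolute log2 fold change divided by the root of F, and 95% intervals are not adjusted for multiple tests. Each SD is over 2 libraries, and precision is limited by the spread of log2 ratios within a pair of replicates (SD over tested genes 0.23 for DMSO and 0.16 for dTAG). For genes with few counts counting error adds to it. Alternatives were DESeq2 1.42.0, upper-quartile factors, ERCC totals, the ERCC factor, the likelihood ratio test, no filter, at least 200 counts, a replicate block, lowess trends (span 0.3) removed, and each library left out. Scripts were tested on simulated data.

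The 8 genes and the lists were chosen with earlier results of these data known. Named genes are the 8, every called gene of the pathway lists (the highest and lowest where a list had none), the nearest gene on either side of each of the 8, and the 5 genes closest in pattern to the called gene with the largest change. ADAM17, LRIG1, NRG2, NRG4, PIK3R2 and HGF were named after their values were seen. The values of 1 tested gene of the lists are not reported here, in the text or in a plot, although it is included in the counts and medians.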

Additional observations from a re-analysis of the deposited data

How the results depend on the processing

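The call of EGFR was the 1 call among the 8 genes, and their number of calls was 2 with DESeq2, 2 with the ERCC factor as a covariate, 3 with the likelihood ratio test, 2 with no filter on low counts, 2 with the length trend removed and 2 with the GC and length trends removed. It stayed at 1 with upper-quartile factors, where the gene was ERBB2 in place of EGFR, and with at least 200 counts. ERCC totals as library sizes gave 0 calls, with 0 of the 8 at an unadjusted p under 0.05, and among all tested genes 0 calls against 895, with 229 at an unadjusted p under 0.05, and 0 calls in the pathway lists against 5, with 4 at an unadjusted p under 0.05. Calls among all tested genes numbered 1593 with the likelihood ratio test, 1417 with no filter and 2284 with the GC and length trends removed. Calls in the pathway lists numbered 8 with DESeq2 and 16 with the GC and length trends removed.

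The replicate numbers were shared by both conditions, but the study names no block, so the numbers were not taken as pairs. Deviations of same-numbered libraries correlated at -0.24, which with 2 libraries per condition cannot decide whether they were paired. With the replicate block, 0 of the 8 genes were called (3 at an unadjusted p under 0.05, EGFR at an adjusted p of 0.239 by edgeR), with 340 calls among all tested genes and 2 in the pathway lists. With the numbers crossed, a setting chosen after seeing the data, these were 4, 3190 and 14. Without 1 library, calls ranged from 0 to 7 among the 8 genes, from 69 to 5491 among all tested genes and from 1 to 29 in the pathway lists. Both ends of the range for all tested genes come from a single library left out, dTAG replicate 2 and DMSO replicate 1.

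ERCC counts summed to 14798 and 25165 in the DMSO libraries and to 13870 and 9551 in the dTAG libraries, so they differed within a condition too. With ERCC totals the median of all tested genes moved from -0.015 to 0.63. ERBB2 (0.39) and ERBB3 (0.41) came above 0 with this common shift while they stayed below that median. The sign also changed for EREG (-0.083) and MET (-0.0081) with the ERCC factor, and for HBEGF (-0.064) without DMSO replicate 1, against 0.35 without DMSO replicate 2. The cause of the changes for EREG, MET and HBEGF was not tested. Depth was not equal between genes, and BTC had at most 662 counts in a library where EREG had at least 211002.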
